A study of Mus musculus with 32 samples.

Results

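The comparison described here is the effect of a knockout of Thrb, the gene of thyroid hormone receptor beta, in the livers of hypothyroid mice that had no toxic injury. It sets 4 Thrb knockout mice against 4 wild-type mice, 8 of the 32 mice in the series, chosen by their labels alone. All 8 ate the PTU/LID diet, which lowers thyroid hormone by blocking its synthesis and limiting iodine, and all received PBS in place of hormone and oil in place of the liver toxin carbon tetrachloride (CCl4). The other 24 mice carry the same genotypes and ate the same diet, and received triiodothyronine (T3, the active thyroid hormone) in the drinking water at 1 µg/ml in the last week, CCl4 at 0.4 µl/g, or both. CCl4 was injected 2 times a week for 4 weeks, 9 times in all, and livers were collected for RNA 24 hours after the final injection. No source used here gives the deleted exon, the strain, the age or the sex. The Y-linked genes Ddx3y, Uty, Kdm5d and Eif2s3y held 3 counts over the 32 libraries together, so Y-linked RNA was all but absent and the mice are taken to be female.

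Thyroid hormone receptors sit on the DNA of their target genes with and without hormone. Without T3 the receptor holds corepressors such as NCoR1 and SMRT with the histone deacetylase HDAC3, and with T3 it exchanges them for coactivators, so that a gene bound by the receptor can be held down in hypothyroidism and switched on by hormone. The beta receptor is the main form in hepatocytes, where it controls lipogenesis, cholesterol use, mitochondrial metabolism and the deiodinase that activates and clears the hormone itself. A gene held down by receptor without hormone would be higher when the receptor is missing, and this comparison contains no added hormone, so it bears on that case. RNA counts give no hormone level, so hormone left on the diet, and whether it differed between the genotypes, was not tested. Below, without hormone means that none was added.

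RNA was measured by sequencing of polyadenylated RNA, and the deposited values are counts of reads per gene. The 8 libraries held 17447900 to 26118055 counts, mitochondrial genes took 4.79 to 6.18% of them, and levels are given here as CPM (read counts relative to library size, scaled with TMM factors and not corrected for gene length). A gene is called when its adjusted p is at most 0.05 in edgeR's quasi-likelihood test of all 32 libraries, adjusted by Benjamini-Hochberg over 15599 genes. Log2 fold changes are knockout over wild type with their standard error (SE), and mean levels carry their SD over n = 4 mice. Hepatocyte markers summed to 131600 to 149700 CPM in the knockouts and 120700 to 175200 in wild type. A pair of injured libraries outside the 8 described, 1 knockout and 1 wild type on PBS and CCl4, lay farthest from their group means, and both enter the common estimate of spread.

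The promoters of 4 genes that stood first, by adjusted p, among those higher in the knockouts without T3 and lower with T3 are shown because the receptor is known to bind DNA at hexamer half-sites. The sequences are RefSeq's on GRCm38.p6, 5′ to 3′ on the gene's strand, from 250 bases before the RefSeq start to the last base before the GENCODE gene. They lie at chr2:57237428-57237634 (plus strand) for Gpd2, chr19:5877572-5877807 (plus) for Slc25a45, chr4:107307170-107307418 (minus) for Dio1 and chr2:32260160-32260355 (minus) for Uck1. Capitals mark AGGTCA or GGGTCA, searched on both strands.
Gpd2: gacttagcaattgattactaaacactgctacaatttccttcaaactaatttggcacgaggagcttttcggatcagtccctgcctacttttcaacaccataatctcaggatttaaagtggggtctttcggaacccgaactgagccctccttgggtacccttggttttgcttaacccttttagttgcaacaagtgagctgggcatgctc
Slc25a45: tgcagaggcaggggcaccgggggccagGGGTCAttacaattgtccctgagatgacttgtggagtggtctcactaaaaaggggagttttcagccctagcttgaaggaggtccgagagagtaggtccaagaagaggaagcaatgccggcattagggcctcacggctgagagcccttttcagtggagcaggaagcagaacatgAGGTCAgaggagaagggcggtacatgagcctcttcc
Dio1: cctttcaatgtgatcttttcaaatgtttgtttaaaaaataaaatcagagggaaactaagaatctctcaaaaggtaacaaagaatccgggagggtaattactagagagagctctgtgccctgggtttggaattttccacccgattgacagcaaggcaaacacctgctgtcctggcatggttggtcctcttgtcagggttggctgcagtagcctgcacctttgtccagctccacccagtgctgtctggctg
Uck1: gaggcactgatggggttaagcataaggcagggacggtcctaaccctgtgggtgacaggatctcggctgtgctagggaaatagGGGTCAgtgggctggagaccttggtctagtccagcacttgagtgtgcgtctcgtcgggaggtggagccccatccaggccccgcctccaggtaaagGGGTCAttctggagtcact
Slc25a45 and Uck1 each hold 2 half-sites in this window, and Gpd2 and Dio1 hold none. Letm1 and Abca3, the next genes in the same order, also hold none. Among 32536 distinct RefSeq promoter windows of 250 bases, 23.9% hold at least 1 of these half-sites. Of the genes called higher in the knockouts, 47 matched a RefSeq promoter by symbol, and 12 of their 59 start windows (20.3%) hold a half-site. None of the 11 called-lower genes with a match holds one. A pair of half-sites in the same direction with 4 bases between them, the arrangement usual for this receptor, was in 0.0338% of all windows and in none of those of the called genes.

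The targeted gene was read first. Thrb (ENSMUSG00000021779, chromosome 14) was at 30.7, 35.7, 42.6 and 34.6 CPM in the 4 knockouts and at 56.9, 62.7, 66.4 and 50.2 CPM in the 4 wild-type mice. The groups did not overlap, and reads of the gene remained in every knockout. A count over the whole gene does not show which exons the reads cover. The log2 fold change was -0.72 ± 0.21 with an adjusted p of 0.167, so it was not called among all genes. It was called in a fit of these 8 libraries alone (-0.71, adjusted p = 0.026) and in a fit without the 2 outlying CCl4 libraries (-0.72, adjusted p = 0.0103). On PBS and CCl4 Thrb was at 23.1, 21.9, 15.9 and 19.1 CPM in knockouts and 23.8, 10.7, 33.1 and 26.3 in wild type. The 10.7 belongs to an outlying library, and the gene was not called there (log2 -0.23 ± 0.21, adjusted p = 0.600). It was called lower on T3 and oil (-0.70 ± 0.21, adjusted p = 0.0207) and on T3 and CCl4 (-1.01 ± 0.21, adjusted p = 0.000966). Thra, which encodes the alpha receptor, measured 21.1 ± 5.03 CPM in the knockouts against 24.0 ± 4.05 in wild type (log2 -0.19 ± 0.21, adjusted p = 0.906). None of the 22 measured receptor, corepressor and coactivator genes was called.

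Few genes differed between knockout and wild-type livers without hormone, and most of those that did were higher in the knockouts. Of the 15599 genes tested, 84 were called (0.538%), 63 higher in the knockouts (0.404%) and 21 lower (0.135%), beside 1273 at an unadjusted p under 0.05. The median log2 fold change of all genes was -0.017. Leaving the 2 outlying CCl4 libraries out of the fit gave 160 called genes, 107 higher and 53 lower, which include all of the 84. The count also moved with single libraries of the comparison: it was 46 without wild-type replicate 2, 55 without knockout replicate 4, and 99 without knockout replicate 2. Of the 84, 33 were called whichever of the 8 libraries was left out, 29 higher and 4 lower. The role groups below were formed after the values were seen.

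**Figure D1:**
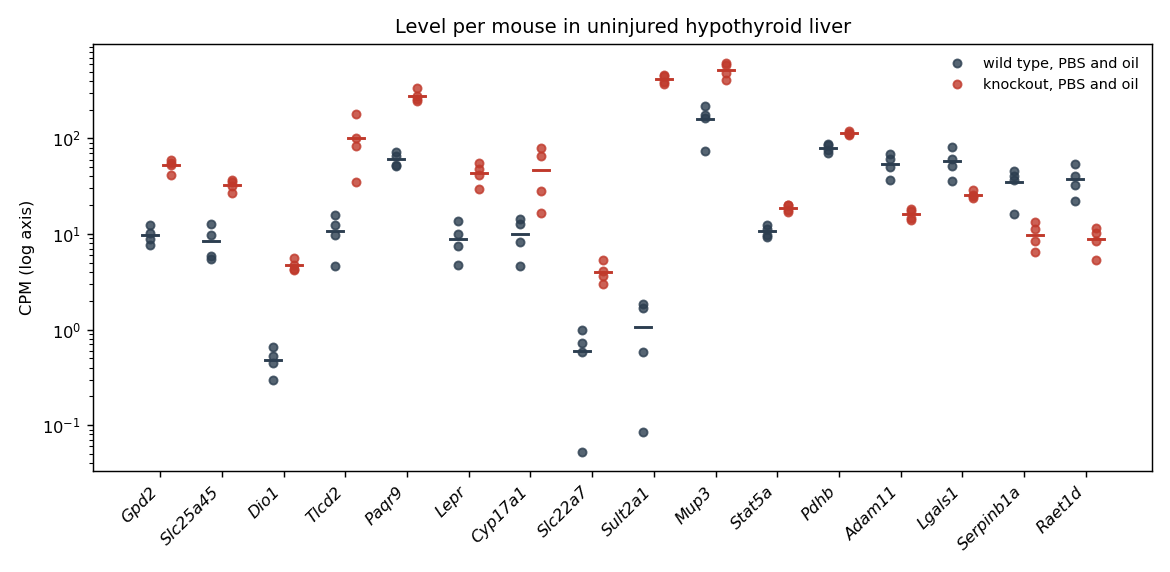
Level per mouse of 16 called genes in uninjured hypothyroid liver, in CPM on a log axis, with 1 point per mouse and a bar at the mean of 4 wild-type (dark) or 4 knockout (red) mice. The first 12 genes were higher in the knockouts and the last 4 lower, and in each of them all 4 knockouts lie on 1 side of all 4 wild-type mice.

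Dio1 and Gpd2, both used as readouts of thyroid hormone in liver, were higher without the receptor although no hormone was given. Other T3-induced genes, Thrsp and Hr among them, did not pass the test (values below). Dio1, the deiodinase that converts thyroxine to T3, was at 4.77, 5.61, 4.31 and 4.2 CPM in the knockouts and 0.450, 0.658, 0.295 and 0.523 in wild type. Every knockout was above every wild-type mouse, with a fitted fold of 9.84 (log2 3.30 ± 0.38, adjusted p = 6.32e-06). The level stayed low on the scale of this gene: wild-type mice on T3 and oil were at 1067 ± 146 CPM, so the hypothyroid knockouts stood at 0.442% of the hormone-treated wild-type level.

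Gpd2 (ENSMUSG00000026827), mitochondrial glycerol-3-phosphate dehydrogenase, had the smallest adjusted p of all genes. Its level was 41.6, 52.4, 55.1 and 59.5 CPM in the knockouts against 7.65, 8.94, 12.3 and 10.2 in wild type. The lowest knockout was far above the highest wild-type mouse, and the fitted fold was 5.31 (log2 2.41 ± 0.20, adjusted p = 2.05e-08). On T3 and oil the order turned: knockouts were at 54.4 ± 10.1 CPM and wild type at 147.9 ± 22.8. T3 moved Gpd2 in wild-type oil mice by 3.91 ± 0.21 on the log2 scale, and in knockouts the change was 0.06 ± 0.19 (adjusted p = 0.867).

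Other mitochondrial and energy genes rose as well. Slc25a45, a member of the mitochondrial carrier family, was at 26.7, 34.7, 31.5 and 36.9 CPM in knockouts and 5.85, 5.43, 9.64 and 12.7 in wild type. The groups were well apart (log2 1.95 ± 0.19, adjusted p = 3.22e-07). Letm1, an inner-membrane protein of mitochondrial ion balance, was 95.7 ± 7.88 CPM in knockouts and 47.9 ± 6.94 in wild type (log2 1.00 ± 0.14, adjusted p = 0.000206). The coenzyme Q-binding proteins Coq10a (log2 0.68 ± 0.13) and Coq10b (1.25 ± 0.23) rose, as did Ciapin1, which serves iron-sulfur cluster assembly (0.79 ± 0.13). Pdhb, a subunit of pyruvate dehydrogenase, differed least of these, at 113 ± 4.45 against 79.7 ± 7.99 CPM (log2 0.51 ± 0.10, adjusted p = 0.0123), with no overlap between the groups. None of the 20 listed oxidative phosphorylation subunits was called, and their median was 0.037.

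Genes of lipid handling were also among the higher ones. Tlcd2, a membrane protein of lipid composition, was at 101, 34.7, 83.9 and 181 CPM in knockouts and 15.8, 9.82, 4.59 and 12.5 in wild type. Knockout replicate 2 was the lowest of its group and still above all wild-type mice (log2 3.24 ± 0.46, adjusted p = 0.000194). Paqr9, a membrane receptor family protein, was 279 ± 41.5 against 60.4 ± 10.2 CPM (log2 2.21 ± 0.34, adjusted p = 0.000462). Mgll, which splits monoglycerides, rose by 1.16 ± 0.23 (adjusted p = 0.0108, but not called without wild-type replicate 4), and Abca3, a lipid transporter, by 1.29 ± 0.19 on the log2 scale. Ppard, the delta form of the fatty acid-sensing PPAR receptors, was called at 1.72 ± 0.41 (adjusted p = 0.0478) although its groups overlapped, at 46.2, 8.14, 50.1 and 65.9 against 16.1, 8.28, 6.94 and 20.6 CPM, and its call held only without knockout replicate 2 or wild-type replicate 4 among the fits that left out 1 library. Lipg, endothelial lipase, was at 25.3 CPM in knockout replicate 2 and 7.15 to 9.03 in the other 3 knockouts, against 1.97 to 3.71 in wild type. Its log2 fold change was 2.04 ± 0.41 (adjusted p = 0.0107), and without knockout replicate 2 it was 1.41 with an adjusted p of 0.0742. It was also not called without wild-type replicate 2.

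Me1, the malic enzyme that supplies NADPH for fatty acid synthesis and a known hormone target, was at 340, 184, 340 and 598 CPM in knockouts and 180, 106, 122 and 142 in wild type. All knockouts were above all wild-type mice, replicate 2 only just (log2 1.41 ± 0.33, adjusted p = 0.0371), and the call ended when any of 6 of the 8 libraries was left out (the exceptions were knockout replicate 2 and wild-type replicate 1). It was the 1 called gene of 18 listed for lipogenesis. The list's median was 0.46, beside -0.017 for all genes, and all 18 lay above 0. In only 3 of the 18 did all knockouts lie above all wild-type mice. The 18 were read in the same 8 mice, so their shared direction does not count as 18 separate observations. Thrsp, a hormone-responsive lipogenic gene, was at 179 ± 128 against 57.0 ± 20.3 CPM (log2 1.65 ± 0.54, adjusted p = 0.248), and Fasn, fatty acid synthase, at 960 ± 616 against 407 ± 145 (log2 1.24 ± 0.45, adjusted p = 0.343). Neither passed the test.

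Some genes of steroid and drug handling rose, while of the listed genes 1 of 23 xenobiotic cytochromes P450 was called (median -0.056) and none of 26 phase II conjugation genes (median -0.037). The phase II list does not hold the Sult2a sulfotransferases described below, which were called. It does hold Sult2a8, at 98.5 ± 35.2 against 8.20 ± 1.67 CPM (log2 3.59 ± 0.91, adjusted p = 0.0751). Cyp17a1, steroid 17-alpha-hydroxylase, was at 27.8, 65.4, 16.4 and 78.9 CPM in knockouts and 8.27, 4.66, 12.6 and 14.2 in wild type. The knockouts varied and the lowest was just above the highest wild-type mouse (log2 2.24 ± 0.43, adjusted p = 0.00659), and the call ended in a fit of these 8 libraries alone (adjusted p = 0.0771). Slc22a7, an organic anion transporter, was at 3.98 ± 0.996 against 0.590 ± 0.395 CPM (log2 2.76 ± 0.58, adjusted p = 0.0146). Slc22a27, of the same transporter family, was at 62.6 ± 7.29 against 12.6 ± 6.84 CPM (log2 2.32 ± 0.41, adjusted p = 0.00263), and the carboxylesterase Ces3b at 64.6 ± 5.34 against 14.2 ± 2.05 (2.18 ± 0.46, adjusted p = 0.0145). The call for Slc22a7 ended without knockout replicate 4 or wild-type replicate 3 or 4, and that for Ces3b without wild-type replicate 2, 3 or 4. These families have close paralogs that can exchange reads, so the split of reads among their members is uncertain. Cyp3a41a was called with 0.201, 1.54, 0 and 19.3 CPM in the knockouts and 2 counts in wild type, and without knockout replicate 4 its adjusted p was 0.314. Its call also ended without wild-type replicate 2 or 3.

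Signalling genes formed a further group. Lepr, the leptin receptor, was at 29.7, 55.4, 41.2 and 47.3 CPM in knockouts and 4.72, 9.98, 7.49 and 13.5 in wild type. The fitted fold was 4.86 with no overlap (log2 2.28 ± 0.34, adjusted p = 0.000339). Bcl3, a nuclear IκB-family coregulator, was at 30.2 ± 8.60 against 7.63 ± 0.791 CPM (log2 1.99 ± 0.31), Nrp1, a receptor for VEGF and semaphorins, at 35.3 ± 4.27 against 17.2 ± 4.81 (1.04 ± 0.20), and Stim2, an endoplasmic reticulum calcium sensor, at 22.6 ± 2.97 against 12.5 ± 1.73 (0.86 ± 0.16). Nrp1 was not called without wild-type replicate 2. Adcy1, an adenylyl cyclase, was at 4.53 ± 2.35 against 0.735 ± 0.530 CPM (log2 2.62 ± 0.56, adjusted p = 0.0156), without overlap, and was not called without knockout replicate 4 or wild-type replicate 1 or 3. Stat5a, a transcription factor downstream of growth hormone, was at 18.7 ± 1.45 against 10.7 ± 1.47 CPM (log2 0.80 ± 0.14, adjusted p = 0.00241). It was the 1 called gene of 18 on the growth hormone list. Trhde, an enzyme that breaks down thyrotropin-releasing hormone, had 48 counts over the 4 knockouts and 1 over the 4 wild-type mice, and was not called without wild-type replicate 2 or 3.

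The Sult2a genes, sulfotransferases that act on hydroxysteroids and bile acids, were higher as a block on chromosome 7. Sult2a1 (ENSMUSG00000078798) was at 390, 454, 372 and 444 CPM in the knockouts and at 1.69, 1.86, 0.0842 and 0.575 in wild type. The knockouts were close to each other while the wild-type mice were near 0, and the fitted fold was 406 (log2 8.67 ± 1.36, adjusted p = 0.000543). Sult2a3 was at 78.9 ± 13.4 against 3.47 ± 3.54 CPM (log2 4.52 ± 0.90, adjusted p = 0.00999, 0.0614 without wild-type replicate 3), and Sult2a7 at 8.26 ± 2.42 against 0.836 ± 0.411 (3.30 ± 0.56, adjusted p = 0.00182). Sult2a4 had 50 counts in knockouts and 2 in wild type, and the pseudogene Kat6b-ps2 had 155 and 0. Between 13752831 and 14123044 on chromosome 7, 5 of the 6 genes tested were called, all higher: Sult2a1, Sult2a3, Sult2a4 and the pseudogenes Kat6b-ps2 and Zbed4-ps2, with Sult2a2 the exception. Sult2a7 lies apart, from 14465051 to 14494230. These paralogs share sequence, so reads of 1 may have been counted for another.

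Unlike the mitochondrial genes, Sult2a1 did not turn with T3. On T3 and oil the knockouts stood at 386 ± 76.2 CPM and the wild-type mice at 31.3 ± 58.8, so it was higher in knockouts there as well (log2 3.62 ± 1.03, adjusted p = 0.0154). The wild-type mice were at 120, 3.27, 2.07 and 0.483 CPM, so their mean came mostly from replicate 1. On PBS and CCl4 the difference was 11.49 ± 1.71 (adjusted p = 0.000357), and on T3 and CCl4 it was 2.09 ± 0.98 (adjusted p = 0.124). The difference between the knockout effects on T3 oil and on PBS oil was -5.04 ± 1.5 (adjusted p = 0.0261). It contains wild-type replicate 1 on T3, and a fit without that mouse was not run.

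Major urinary protein genes, whose products carry pheromones, moved both ways within 1 stretch of chromosome 4. Mup3 was at 404, 481, 608 and 588 CPM in knockouts and 219, 165, 175 and 74.5 in wild type, with no overlap (log2 1.72 ± 0.39, adjusted p = 0.0342). The call for Mup3 ended without knockout replicate 3 or 4 and without wild-type replicate 2, 3 or 4. Its neighbour Mup21 went the other way, at 5.87, 9.00, 8.01 and 8.04 CPM in knockouts and 18.7, 33.1, 41.2 and 60.3 in wild type (log2 -2.31 ± 0.39, adjusted p = 0.00127). Many members of this family are close in sequence and can exchange reads. How far this touches the values of Mup3 and Mup21 was not tested. Mup3 and the pseudogene Gm18562 (274 counts in knockouts and 2 in wild type) were the 2 genes called higher in the knockouts in all 4 conditions, and no gene was called lower in all 4.

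Of the 21 lower genes, none was a member of the 30 lists described below. Adam11, a metalloprotease-like membrane protein, was at 17.5, 14, 14.7 and 18.3 CPM in knockouts and 69.2, 61.4, 50.7 and 36.8 in wild type. Every knockout was below every wild-type mouse, by a fitted fold of 3.38 (log2 -1.76 ± 0.27, adjusted p = 0.000462). Lgals1, galectin-1, was at 25.3, 23.7, 25.1 and 29 CPM in knockouts and 82.0, 61.2, 51.7 and 35.8 in wild type, again without overlap (log2 -1.16 ± 0.21, adjusted p = 0.00423). Serpinb1a, an inhibitor of neutrophil proteases, was at 9.84 ± 2.97 against 34.7 ± 12.8 CPM (log2 -1.82 ± 0.36, adjusted p = 0.00812), and its adjusted p was 0.0520 without wild-type replicate 2.

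Raet1d, a ligand of the NKG2D receptor of killer cells, was at 8.90 ± 2.74 against 37.3 ± 13.6 CPM (log2 -2.07 ± 0.45, adjusted p = 0.0230), and of the fits without 1 library only that without wild-type replicate 4 kept the call. Arsa, the lysosomal arylsulfatase A, was at 22.1 ± 3.18 against 41.4 ± 11.3 CPM (log2 -0.91 ± 0.17, adjusted p = 0.00508, 0.0546 without wild-type replicate 2). Falls were also called for Bok, a BCL2-family protein (-0.82 ± 0.17), Vill, a villin-like protein (-1.48 ± 0.31), and Osbpl3, an oxysterol-binding protein (-1.69 ± 0.39), each of which lost its call in 3 or more of the fits without 1 library (Vill without knockout replicate 1 or 4 or wild-type replicate 2, Bok without knockout replicate 1 or 4 or wild-type replicate 1, and Osbpl3 without any of the 8). Setbp1 (-2.05 ± 0.41) is the 1 called-lower gene that T3 raised in injured wild-type livers by at least 1 on the log2 scale, and without knockout replicate 4 its adjusted p was 0.0529.

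The predicted gene Gm4956 had the largest fall of all called genes at 5 CPM or more, from 9.53 ± 5.32 CPM in wild type to 0.953 ± 0.336 in knockouts (log2 -3.30 ± 0.47, adjusted p = 0.000194). Sap130, a subunit of the Sin3 corepressor complex (-0.45 ± 0.10, adjusted p = 0.0268), and Ifi27l2b, of an interferon-inducible family (-1.0 ± 0.23, adjusted p = 0.0371), fell without overlap. The call for Sap130 held only without knockout replicate 2 or wild-type replicate 4 among the fits that left out 1 library, and that for Ifi27l2b only without wild-type replicate 1. The other called-lower genes were Cyp4a12a, Hcar2, Lrtm2, Atp8b4, Pla2g12a, Trp53bp1, 1700037C18Rik and 5330417C22Rik, of which Pla2g12a alone had overlapping groups, and each lost its call in at least 1 of the fits without 1 library. On the higher side, 9030619P08Rik had 568 counts in knockouts and 3 in wild type, and Gm12265 had 183 and 7. Ctsc, the lysosomal protease cathepsin C, was at 170.3 ± 21.1 against 88.5 ± 19.0 CPM (log2 0.95 ± 0.20, adjusted p = 0.0150, not called without knockout replicate 3 or 4 or wild-type replicate 2, 3 or 4), and Nsmf at 107 ± 5.58 against 61.7 ± 12.5 (0.80 ± 0.15, adjusted p = 0.00426). The higher genes Trp53inp2, Pdp2, Fam107b, Smagp, Tle6, Mup16 and 4430402I18Rik also did not overlap between the groups, and of these 4430402I18Rik alone was called in every fit without 1 library.

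The genes that T3 raises were next defined in mice outside this comparison, since the question is whether they are higher when the receptor is missing. In wild-type mice on CCl4, T3 raised 1450 genes by at least 1 on the log2 scale (9.3% of the genes tested) and lowered 1460 by as much (9.36%). Of the 1450 raised genes, 52 were called higher in the hypothyroid knockouts (3.59%, against 0.404% of all genes) and 1, Setbp1, lower. Some raised genes had almost no counts in wild type on PBS and oil, such as 9030619P08Rik (3 over the 4 mice), Gm18562 (2) and Cyp3a41a (2). Such a gene can pass the filter through other groups and be called higher, but hardly lower. How many of the 52 this covers was not counted. Of the 1460 lowered genes, 16 were called lower (1.10%, against 0.135%) and none higher. The raised genes hold 82.5% of the 63 higher genes, and the lowered genes 76.2% of the 21 lower ones. The median log2 fold change was 0.16 for the raised and -0.23 for the lowered genes, beside -0.017 for all. Without the 2 outlying CCl4 libraries, the sets held 1251 and 1190 genes, of which 83 were called higher and 35 lower. The count of 52 was 30 without wild-type replicate 2 and 80 by DESeq2. The count of 16 was 7 without knockout replicate 1, 6 without knockout replicate 4, 7 without wild-type replicate 2, 10 without wild-type replicate 4, 28 by DESeq2 and 25 in the fit of the 8 libraries.

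**Figure D2:**
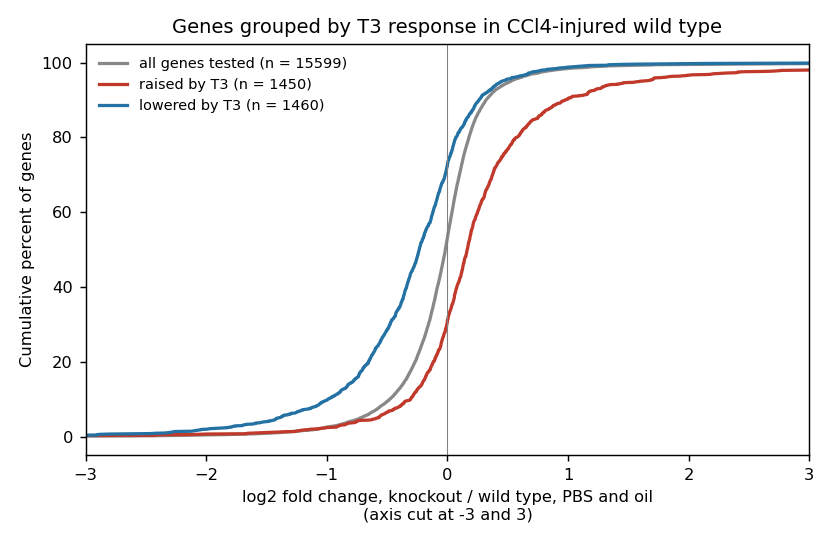
Cumulative percent of genes (vertical axis) by log2 fold change of knockout over wild type on PBS and oil (horizontal axis, cut at -3 and 3), for all 15599 genes (grey), the 1450 raised by T3 in CCl4-injured wild-type mice (red) and the 1460 lowered (blue). The red curve lies to the right of the grey one and the blue curve to the left, with medians of 0.16, -0.017 and -0.23.

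The share that was higher in the knockouts went with the size of the T3 response. Among genes that T3 raised by 0 to 1, 1 to 2, 2 to 3, 3 to 4 and 4 or more on the log2 scale, 0.240, 1.28, 5.46, 12.0 and 13.7% were called higher, and the medians were 0.045, 0.11, 0.38, 0.63 and 0.87. Even in the top class of 117 genes, 16 were called. Genes with almost no counts in hypothyroid wild type, which can hardly be called lower, were not set apart in these classes. For genes that T3 lowered, the medians over the same classes went from -0.032 to -0.75, and the share called lower was 0.0518, 0.796, 1.81, 0.917 and 2.90%. The T3-raised genes were also split by whether their response in injured livers was called smaller in the knockouts. Of the 990 that had a smaller response, 47 were called higher on PBS and oil (4.75%, median 0.20), and of the other 460, 5 were (1.09%, median 0.048). The same split of the T3-lowered genes gave 14 of 857 called lower (1.63%) and 2 of 603 (0.332%). The test of a smaller response subtracts the knockout effect on PBS and CCl4. A T3-raised gene that is also higher in those knockouts therefore has a smaller response by construction, and the reverse holds for T3-lowered genes. The contrast between the parts of each split is thus partly built in.

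Groups that did not overlap were counted as well, with no test. All 4 knockouts lay above all 4 wild-type mice in 530 genes (3.4% of those tested) and below them in 534 (3.42%). Among the T3-raised genes, 199 lay above (13.7%) and 18 below (1.24%). Among the T3-lowered genes, 8 lay above (0.548%) and 118 below (8.08%).

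With hormone present, the order of the genotypes turned for many of these genes. On T3 and oil, 2549 genes were called between knockout and wild type (16.3%), 1113 higher in knockouts (7.14%) and 1436 lower (9.21%), in mice separate from the 8 described. Of the 63 genes higher without hormone, 35 were called lower in the T3-treated knockouts (55.6% of the 63 and 2.44% of the 1436), 8 were higher there too, and 20 were not called. The count of 35 was 20 without wild-type replicate 2, 62 by DESeq2 and 61 without the 2 outlying CCl4 libraries. Of the 21 genes lower without hormone, 8 were called higher with T3 (38.1% of the 21 and 0.719% of the 1113): Adam11, Arsa, Bok, Lgals1, Mup21, Raet1d, Serpinb1a and Trp53bp1. The 8 higher in both were Mup3, Sult2a1, Sult2a3, Sult2a4, Sult2a7, Gm18562 and the pseudogenes Kat6b-ps2 and Zbed4-ps2.

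The 35 genes that turned include Dio1, Gpd2, Slc25a45, Letm1, Coq10a, Coq10b, Pdhb, Me1, Cyp17a1, Slc22a7, Bcl3, Stat5a and Nrp1. Their level in hypothyroid knockouts lay between that of hypothyroid and of T3-treated wild-type mice, at 0.442% (Dio1) to 77.8% (Tgfbrap1) of the T3-treated wild-type mean, with a median of 32.8%. Gpd2 stood at 35.3% of it, Stat5a at 23.4% and Slc22a7 at 0.703%. Stim2 was at 22.6 ± 2.97 CPM in knockouts on PBS and 20.6 ± 0.982 on T3, while wild type went from 12.5 ± 1.73 to 99.3 ± 19.9. Bcl3 gave 30.2 ± 8.60 and 26.4 ± 3.32 CPM in knockouts, and 7.63 ± 0.791 and 88.4 ± 8.55 in wild type. T3 moved neither gene past the test in knockouts (log2 -0.14 ± 0.15, adjusted p = 0.603, for Stim2 and -0.20 ± 0.29, adjusted p = 0.695, for Bcl3). Dio1 did respond in knockouts (log2 4.59 ± 0.33, adjusted p = 4.505e-10): it was at 4.72 ± 0.643 CPM in knockouts on PBS and 114 ± 12.4 on T3, 10.6% of the wild-type level on T3.

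Adam11 showed the mirror order. It was highest in hypothyroid wild type (54.5 ± 14.1 CPM), lower in knockouts without (16.1 ± 2.09) and with T3 (10.9 ± 4.43), and lowest in wild type on T3 (0.897 ± 0.364). Lgals1 was at 57.7 ± 19.3, 25.8 ± 2.26, 37 ± 4.77 and 15.4 ± 2.04 CPM in the same order of groups. The knockout effect on T3 and oil was 3.58 ± 0.33 for Adam11 and 1.26 ± 0.22 for Lgals1 on the log2 scale.

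**Figure D3:**
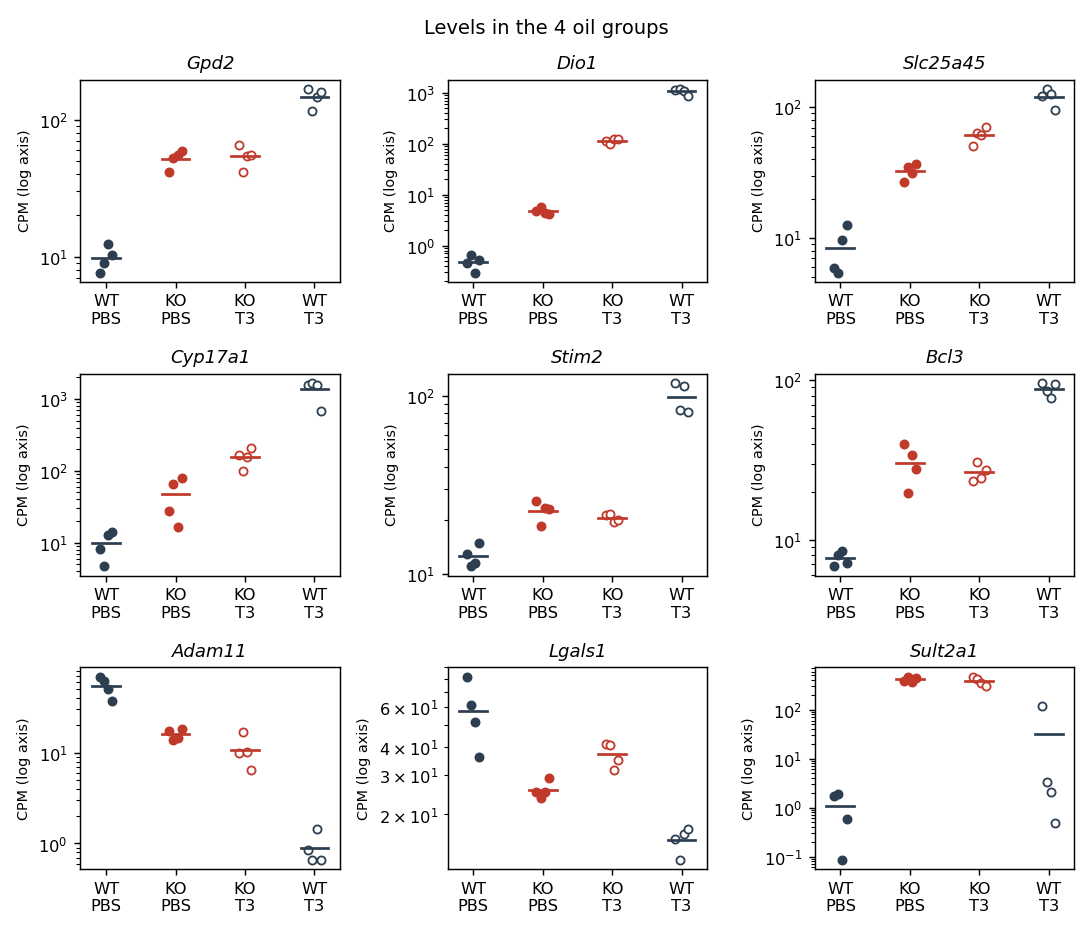
Level of 9 genes in the 4 oil groups, in CPM on log axes that differ between panels, with 1 point per mouse and a bar at the mean of 4 (filled for PBS, open for T3, dark for wild type, red for knockout). Gpd2, Dio1, Slc25a45, Cyp17a1, Stim2 and Bcl3 are lowest in wild type on PBS and highest in wild type on T3 with the knockouts between, Adam11 and Lgals1 run the other way, and Sult2a1 is high in both knockout groups.

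The same genotype comparison in other hypothyroid mice, those injured with CCl4, gave a repeat with no mouse in common, though Thrb itself was not called there. There 351 genes were called (2.25%), 189 higher in knockouts (1.21%) and 162 lower (1.04%). Of the 63 genes higher in uninjured knockouts, 36 were called higher in injured ones (57.1% of the 63 and 19.0% of the 189) and none lower. Their log2 fold changes were above 0 for 60 of the 63, with a median of 1.37. Of the 21 lower genes, 7 were called lower (33.3% of the 21 and 4.32% of the 162), none higher, and 19 lay below 0. Without the 2 outlying CCl4 libraries, 31 and 4 were called in the same direction and none in the opposite one, of 209 called in all. Dio1 differed by 4.0 ± 0.35, Slc22a27 by 3.32 ± 0.44, Gpd2 by 1.58 ± 0.19 and Mup21 by -1.51 ± 0.40 there. Bcl3 (0.48 ± 0.29, adjusted p = 0.398), Stim2 (0.30 ± 0.15, adjusted p = 0.299) and Lgals1 (-0.17 ± 0.21, adjusted p = 0.715) were not called in injured livers.

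A direct test of the difference between the 2 hypothyroid conditions called 3 genes (0.0192%). Ciapin1 was 1 of the 3, with a knockout effect of 0.79 ± 0.13 in uninjured and -0.19 ± 0.12 in injured livers. The difference was -0.98 ± 0.18 (adjusted p = 0.0383). This test contains the 8 libraries by which Ciapin1 was called higher, so its difference is no separate evidence.

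A test of the difference between the knockout effects on T3 oil and on PBS oil called 12.2% of all genes, 5.58% with a more positive and 6.64% with a more negative effect on T3. Since it contains the 8 libraries described, its calls among the 84 were not counted.

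In the fourth condition, T3 and CCl4, 3566 genes were called between the genotypes (22.9%), 10.4% higher and 12.5% lower in knockouts. Of the 63 higher genes, 42 were called lower there and 3 higher, and of the 21 lower genes, 8 were called higher and 1 lower. Across all 4 conditions, 17 genes were called higher in both hypothyroid comparisons and lower in both T3 comparisons: Abca3, Chic1, Cpne2, Cyp17a1, Dio1, Frmd8, Gpd2, Letm1, Lipg, Mgll, Mup-ps13, Sbk1, Slc22a27, Slc22a7, Slc25a45, Stat5a and Tor1a. The reverse held for Adam11, Arsa and Mup21. Within injured wild-type livers, T3 raised 56 of the 63 (88.9%, against 20% of all genes) and lowered 17 of the 21 (81.0%, against 21.7%). That response was called smaller in knockouts for 50 of the 63 (79.4%, against 12.4% of all genes called lower in that test) and more positive for 15 of the 21 (71.4%, against 10.3%). The test subtracts the knockout effect on PBS and CCl4, so these counts are partly built in. In all, 22.7% of genes were called in that test and 41.7% responded to T3 in injured wild-type livers.

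**Figure D4:**
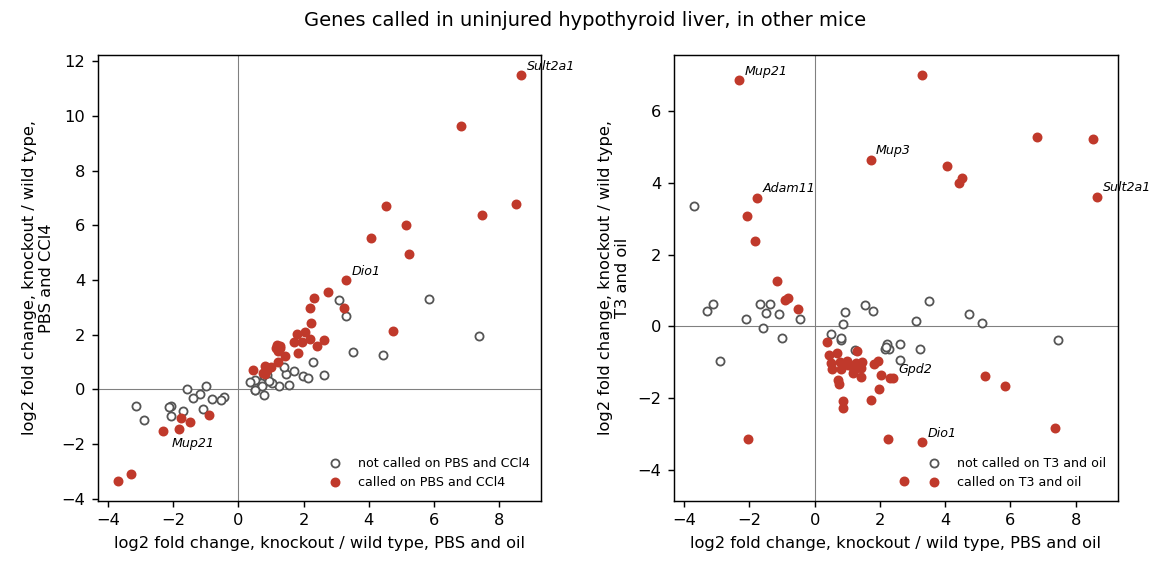
Log2 fold change of knockout over wild type for the 84 genes called on PBS and oil (horizontal axes), against the same in mice on PBS and CCl4 (left) and on T3 and oil (right), with filled points for genes called there. On the left 36 of 63 higher genes were called higher again and none lower, and on the right 35 were called lower, with Sult2a1 and Mup3 among the 8 still higher.

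Pathways were read from 30 lists. These were chosen with earlier results of these data known, so a list's count of called genes is description and no separate evidence. Of 506 listed genes that were tested, 10 were called, all higher, beside 84 of all 15599 genes, and 22 lists had none. The list of T3-induced liver genes had 6 of 23 called (Dio1, Gpd2, Bcl3, Stim2, Nrp1 and Me1) and a median of 0.46. Idh3a, an isocitrate dehydrogenase subunit (0.72 ± 0.28, adjusted p = 0.424), was among its members that did not pass. Of 16 genes listed as T3-repressed none was called and the median was -0.037. The list's name did not hold for all of them in these livers: Sult1e1 (9.10), Akr1b7 (1.44), Fgl1 (1.17) and Igfbp2 (0.75) had positive log2 differences of T3 over PBS in wild-type oil mice. The T3-induced list had the same limit: G6pc (-0.39), Klf9 (-0.37), Gpt2 (-0.35) and Ppargc1a (-0.27) had negative differences there. None of the 22 cholesterol synthesis genes (median 0.16), the 18 bile acid genes (0.16) or the 20 fatty acid oxidation genes (0.0010) was called. In bile acid handling, Cyp39a1, an oxysterol hydroxylase, was at 55.3 ± 16.2 against 29.5 ± 5.04 CPM (log2 0.91 ± 0.24, adjusted p = 0.0922).

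Markers of other liver cells were summed beside these results. Markers of stellate cells and fibroblasts summed to 338.6 to 381.4 CPM in knockouts and 392.9 to 455.0 in wild type, without overlap, and all 14 tested members lay below 0 (median -0.26) with none called. Acta2, a marker of activated stellate cells, was at 1.04 ± 0.520 against 2.64 ± 1.59 CPM (log2 -1.32 ± 0.63, adjusted p = 0.595). Lgals1, which such cells also express, fell in the same mice, and the part of these cells in its fall was not tested. In bulk liver, fewer cells of a type and less RNA per cell cannot be told apart. Of 30 matrix genes, Col15a1, a basement membrane collagen, rose (18.9 ± 5.75 against 5.30 ± 1.02 CPM, log2 1.83 ± 0.29, adjusted p = 0.000693), and the list's median was -0.28. The sums of Kupffer, macrophage, neutrophil, lymphocyte, cholangiocyte and endothelial markers overlapped between the groups. The medians of these lists were also below 0, with no gene called. They were -0.52 for neutrophil, -0.31 for macrophage, -0.21 for lymphocyte, -0.19 for cholangiocyte, -0.092 for Kupffer and -0.089 for endothelial markers. All 8 tested neutrophil markers lay below 0, so the downward direction was not particular to stellate cell markers. Ly6g (neutrophils), Prss1 and Cpa1 (pancreas) and Cyp11b1 (adrenal) had no count in any of the 8 libraries.

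Position gave 1 more view of the called genes. Within 10 Mb of Thrb on chromosome 14, 1 of 86 genes tested was called (1.16%), Pdhb, and its call ended without wild-type replicate 1 or 2. None of the 51 genes within 5 Mb was called, and none of the 86 was called in all 4 conditions. Of the 84 called genes, 20 lay within 100 kb of another called gene, in 8 clusters. Besides the Sult2a and Mup genes these were Frmd8, Slc25a45 and Dpf2 on chromosome 19, Paxx and Ptgds on chromosome 2, Osgin1 and Necab2 on chromosome 8, Gm45716 and Mmd on chromosome 11, and Cdx4 and Chic1 on chromosome X. In all clusters except that of Mup3 and Mup21, the members moved in the same direction. The share of all genes tested with such a neighbour was not worked out, so the count of 20 has no reference and describes position only. The Sult2a and Mup clusters also hold paralogs or pseudogenes that can exchange reads.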

How the data were processed

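Liver RNA of 32 mice in 8 groups of 4 was analysed, and 8 of them carry the comparison described. What the authors deposited is a single matrix of raw counts, 1 value per gene and library. The submitters' processing notes name FastQC (0.11.5), STAR (2.7.9a), Trim Galore, cutadapt and the GRCm38 build. The counting tool, strandedness and annotation release are given by none of the sources used here. The protocols in the labels name 2 library kits without saying which library had which, so kit and group cannot be told apart. By its label each library comes from a separate animal.

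The test of the counts used edgeR 4.0.16 under R 4.3.3, with limma 3.58.1 loaded: TMM factors, filterByExpr (minimum count 10, minimum total 15), 1 quasi-likelihood fit of all 32 libraries and contrasts between group means. Of 52636 genes in the table, 15599 passed the filter. Benjamini-Hochberg adjustment ran over those genes, with calls at 0.05. All adjusted p-values in the text come from this test unless a setting is named. SE was taken from the fold change and the F statistic. Symbols and positions come from GENCODE vM21 (52489 genes matched) and promoters from RefSeq on GRCm38.p6. The test was checked on simulated data. Alternatives were DESeq2 1.42.0, other factors and filters, a fit of the 8 libraries, a replicate block and leaving out each library. The fit without 2 outlying CCl4 libraries was chosen after seeing the data. The members and lists were chosen with earlier results of these data known.

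Genes were named by rule: Thrb and Thra, up to 4 called members of each list, the 15 largest rises and falls that reach 5 CPM without overlap, and the leading genes of each pattern described. Nrp1, Mgll, Pdhb, Slc22a7, Mup3, Coq10a, Coq10b, Trhde, Adcy1, the remaining called genes listed by name, and all uncalled list members beside Thrb and Thra were named after their values were seen.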

Additional observations from a re-analysis of the deposited data

Results flagged for a closer look

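The effect of the knockout was tested for a difference between mice on T3 and oil and mice on PBS and oil, as an interaction in edgeR's quasi-likelihood test with Benjamini-Hochberg adjustment over all genes. Each value below is the knockout effect on T3 minus the knockout effect on PBS, on the log2 scale. The comparison contains the 8 libraries described in both the effect and the difference, so these values stand beside the effects and are no separate evidence.

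Among the genes of energy metabolism the difference was -3.85 for Gpd2, -2.92 for Slc25a45, -1.96 for Letm1, -1.78 for Ciapin1 and -2.83 for Me1. It was -6.53 for the deiodinase Dio1. Among steroid, drug and lipid genes it was -5.38 for Cyp17a1, -3.76 for Slc22a27, -2.77 for Ces3b, -10.21 for Cyp3a41a, -1.96 for Abca3, -3.88 for Tlcd2, -2.71 for Paqr9, -3.39 for Lipg and -5.04 for Sult2a1. For Sult2a1 the mean of the wild-type mice on T3 came mostly from 1 mouse. Sult2a7 went the other way at 3.71. Among signalling and matrix genes it was -2.90 for Lepr, -3.73 for Bcl3, -1.98 for Stat5a, -3.12 for Stim2 and -2.86 for Col15a1, and it was -2.46 for Uck1, a uridine kinase, and -2.82 for Ptgds, a prostaglandin D synthase. The transcripts 9030619P08Rik and Mup-ps13 gave -7.85 and -6.61. Sult2a3 (-0.39, adjusted p = 0.872), Ctsc (-0.56, adjusted p = 0.206) and Gm18562 (-1.55, adjusted p = 0.576) did not pass the test.

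Of the genes lower in the hypothyroid knockouts, Setbp1 (-1.09, adjusted p = 0.228) and Ifi27l2b (0.67, adjusted p = 0.187) had differences that did not pass the test. The following lower genes had positive differences that passed it. They were 5.34 for Adam11, 2.42 for Lgals1, 4.21 for Serpinb1a, 5.14 for Raet1d, 1.65 for Arsa and 9.18 for Mup21. They were 1.85 for Vill, 1.6 for Bok, 2.31 for Osbpl3, 0.64 for Sap130, 1.02 for Trp53bp1 and 3.72 for Gm4956. Over the genes that passed, higher and lower, the adjusted p ran from 2.67e-10 (Gpd2) to 0.0333 (Ptgds). Between the PBS and CCl4 mice and the PBS and oil mice, the knockout effect on Ciapin1 differed by -0.98 (adjusted p = 0.0383), a comparison that also contains the 8 libraries described.

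In several genes 1 mouse lay far from the other 3 of its group, measured by its gap over the group's range, which chance also gives in about 1 of 20 groups. In wild type, Uck1 was at 19.63 CPM in replicate 1 and 13.39 to 14.27 in the others, and Osbpl3 at 12.63 in replicate 3 and 8.629 to 8.886 in the others. In the knockouts, Gm4956 was at 1.451 CPM in replicate 3 and 0.7401 to 0.8528 in the others, Ciapin1 at 28.46 in replicate 3 and 32.41 to 33.12, and Slc22a27 at 73.5 in replicate 3 and 58.53 to 59.39. Lipg was at 25.35 CPM in knockout replicate 2 and 7.153 to 9.029 in the others, and Cyp3a41a at 19.33 in knockout replicate 4 and 0 to 1.542 in the others. The remaining cases rest on 1 or 2 counts: wild-type replicate 1 held 0.1125 CPM of Gm18562 and of Cyp3a41a while the others held 0, wild-type replicate 4 held 0.0523 CPM of Mup-ps13 while the others held 0, and wild-type replicate 3 held 0.0 CPM of 9030619P08Rik while the others held 0.0523 to 0.05624.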

How the results depend on the processing

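Of the 42 called genes named by rule, all kept their direction under every alternative in which they were tested (2 were not tested in the fit of the 8 libraries), and under DESeq2, RLE factors, the 1 CPM filter and the fit without the 2 outlying CCl4 libraries all 42 kept their call. DESeq2 called 144 genes, 103 higher and 41 lower, with 83 of the 84 among them. It called 80 T3-raised genes higher, 28 T3-lowered genes lower, 62 genes higher on PBS oil and lower on T3 oil, and 736 genes on PBS and CCl4. The fit of the 8 libraries alone called 109 genes, 41 of them lower, shared 55 with the 84, gave 25 T3-lowered genes lower, and put Thrb at -0.71 with an adjusted p of 0.026. Without the 2 outlying CCl4 libraries, a setting chosen after seeing the data, the counts were 160 called, 107 higher, 53 lower, 83 T3-raised, 35 T3-lowered, 61 that turned on T3, 209 on PBS and CCl4 and 17 in the gene lists, with Thrb at -0.72. With no filter on low counts 205 genes were called on PBS and CCl4. The 1 gene near Thrb became 0 with no filter, with total counts alone and within 5 Mb.

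Leaving out 1 library at a time gave 46 to 99 called genes, 37 to 70 higher and 7 to 29 lower. It gave 30 to 57 T3-raised genes called higher, 6 to 19 T3-lowered genes called lower, 20 to 40 genes that turned on T3, 6 to 13 called in the gene lists and 0 to 1 near Thrb. Of the 84 genes, 33 were called in all 8 of these fits, and 30 in all the alternatives run, the fit without the 2 CCl4 libraries included.

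With the replicate number as a block, 89 genes were called, 81 of them among the 84. The labels do not say that a number marks a shared litter or day, and same-numbered knockout and wild-type libraries deviated with correlations of 0.072, 0.041, -0.10 and -0.14, so the numbers were not taken to pair the mice. Depth of 17447900 to 26118055 counts limits genes such as Mup16 (25 counts in knockouts and 0 in wild type).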
